A study of Mus musculus with 6 samples.

Results

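Chromatin changes were examined at 5 genes of the osteoblast lineage, the bone-forming cells: Runx2, Zfp521, Tnfsf11, Alpl and Sp7. The 5 genes were taken by name, as regulators and products of osteoblasts, from 21887 protein-coding genes of the mouse annotation. A differential region was linked to a gene when its midpoint lay inside the gene's span, or lay outside all protein-coding spans with that gene the nearest within 100 kb. Regions within 500 kb of each span were counted as well, whatever gene was nearest. By these rules 8 of 3521 differential regions were linked to the 5 genes and 29 lay within 500 kb of them.

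Open chromatin was measured by ATAC-seq, in which a transposase inserts sequencing adapters into accessible DNA, in cultured mouse embryonic fibroblasts isolated at embryonic day 13.5. The FOP group was heterozygous for the R206H allele of Acvr1 (Acvr1R206H/+, 3 libraries) and the wild-type group carried only normal Acvr1 (Acvr1+/+, 3 libraries). Acvr1 encodes a type I receptor for bone morphogenetic proteins (BMPs), and this allele causes fibrodysplasia ossificans progressiva (FOP), in which bone forms in soft tissue. Both groups were grown in serum-containing medium, and the labels name no osteogenic induction, tissue of origin within the embryo, or embryo from which each library came. The study asked how the mutation changes chromatin accessibility. The deposited data used here are the authors' lists of regions called more accessible (2965) or less accessible (556) in FOP than in wild-type cells. They give positions only, so the depth and the value of each library are unknown, no size of change can be stated, and variation among replicates cannot be assessed. Nor could the fibroblast identity of the cells be checked against marker genes. All counts below describe where the listed regions lie, and closeness to a gene does not show that a region acts on it.

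As background, osteoblasts arise from mesenchymal progenitors under the control of BMP and WNT signals. RUNX2, a Runt-domain transcription factor, starts the programme, and SP7 (osterix), a zinc finger factor, acts after it. ZFP521, a zinc finger protein, binds RUNX2 and restrains its activity. ALPL, tissue-nonspecific alkaline phosphatase, frees phosphate for mineralization and is a classical early marker of the lineage. TNFSF11 (RANKL) is the cytokine by which stromal and osteoblast-lineage cells drive the formation of bone-resorbing osteoclasts. Runx2 and Tnfsf11 are known to be controlled partly by enhancers distant from their starts.

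The RefSeq promoter windows of 3 of the 5 genes show the start sites from which distances below were measured, and none of them touched a listed region. Each window runs from 250 bases before to 50 bases after an annotated start, on the minus strand of GRCm38.p6. The windows are chr17:44814578-44814877 for Runx2, chr14:78307994-78308293 for Tnfsf11 and chr4:137796335-137796634 for the farther upstream of 2 annotated Alpl starts. Capitals mark RUNX motif letters (TGTGGT, or ACCACA on the other strand) and the SMAD1/5 motif GGCGCC, which reads the same on both strands.
Runx2: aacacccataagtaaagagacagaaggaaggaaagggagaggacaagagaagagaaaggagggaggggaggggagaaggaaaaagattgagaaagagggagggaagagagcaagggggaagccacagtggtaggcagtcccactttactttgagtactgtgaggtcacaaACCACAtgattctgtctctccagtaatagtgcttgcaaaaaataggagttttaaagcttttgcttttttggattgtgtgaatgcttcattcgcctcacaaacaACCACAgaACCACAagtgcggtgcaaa
Tnfsf11: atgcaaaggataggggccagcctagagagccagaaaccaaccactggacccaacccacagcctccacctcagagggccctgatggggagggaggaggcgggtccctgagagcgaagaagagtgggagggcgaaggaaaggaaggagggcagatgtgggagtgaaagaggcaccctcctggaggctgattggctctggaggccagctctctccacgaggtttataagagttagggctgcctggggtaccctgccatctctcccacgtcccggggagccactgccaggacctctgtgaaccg
Alpl: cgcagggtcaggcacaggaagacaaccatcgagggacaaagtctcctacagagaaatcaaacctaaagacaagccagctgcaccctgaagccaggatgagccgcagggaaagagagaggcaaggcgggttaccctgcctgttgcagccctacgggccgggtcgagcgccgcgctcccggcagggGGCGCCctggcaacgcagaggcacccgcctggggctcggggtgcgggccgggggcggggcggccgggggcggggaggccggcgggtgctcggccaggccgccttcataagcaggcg

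The Runx2 window held 3 RUNX motif matches, all as ACCACA, and 16.8% of 32817 promoter windows held at least 1. The share of windows with 3 or more was not counted. The Alpl window held 1 match to the SMAD1/5 motif, a sequence present in 11.9% of promoter windows. That motif consists of G and C only, and this window is 70.0% G and C, beside a median of 52.7% over all promoter windows. The Tnfsf11 window held no match to either motif. The second Alpl window, chr4:137766426-137766725, held none either. Among the other motifs searched, a general SMAD motif (CAGACA, in 21.0% of promoter windows), the AP-1 motif (TGANTCA, 7.81%) and the TEAD motif (GGAATG, 14.7%) had no match in these 4 windows, and the E-box (CANNTG, 72.3%) had 1 to 3 in each. These matches are descriptions of letters and not bound sites. The gap between each window and the nearest listed region was 154 kb at Runx2 (a more accessible region), 13.1 kb at Tnfsf11 (more accessible) and 17.4 kb at the upstream Alpl start (less accessible). For Runx2 only 1 start was used, so distances to any other start of the gene were not measured.

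The 5 genes differed in how many regions they had and in which direction. The transcriptional regulators Runx2 and Zfp521 had 2 and 3 linked more accessible regions, and the cytokine gene Tnfsf11 had 1. Alpl had 1 linked region, less accessible, and Zfp521 had 1 less accessible region as well. Sp7 had no linked region of either direction. Thus 3 of 5 genes had at least 1 linked more accessible region, against 7.27% of all protein-coding genes, and 2 of 5 had at least 1 linked less accessible region, against 1.99% of all. Since the genes were chosen with earlier results of these data known, the counts carry no test.

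Both directions were present around the 5 genes, and more accessible regions were the more numerous. Of the 8 linked regions 6 were more accessible, a share of 75.0% (exact Clopper-Pearson 95% interval 34.9 to 96.8%, which covers counting error only). Within 500 kb 24 regions were more and 5 less accessible, a share of 82.8% (64.2 to 94.2%). Over all listed regions the share was 84.2%. With so few regions, and genes chosen with earlier results known, the intervals cannot show whether the shares differ. All 5 genes had at least 1 region within 500 kb, as did 60.8% of all protein-coding genes. The median over the 5 genes was 4 more accessible and 0 less accessible regions within 500 kb, beside 0 and 0 over all protein-coding genes, whose means were 1.03 and 0.342.

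**Figure D1:**
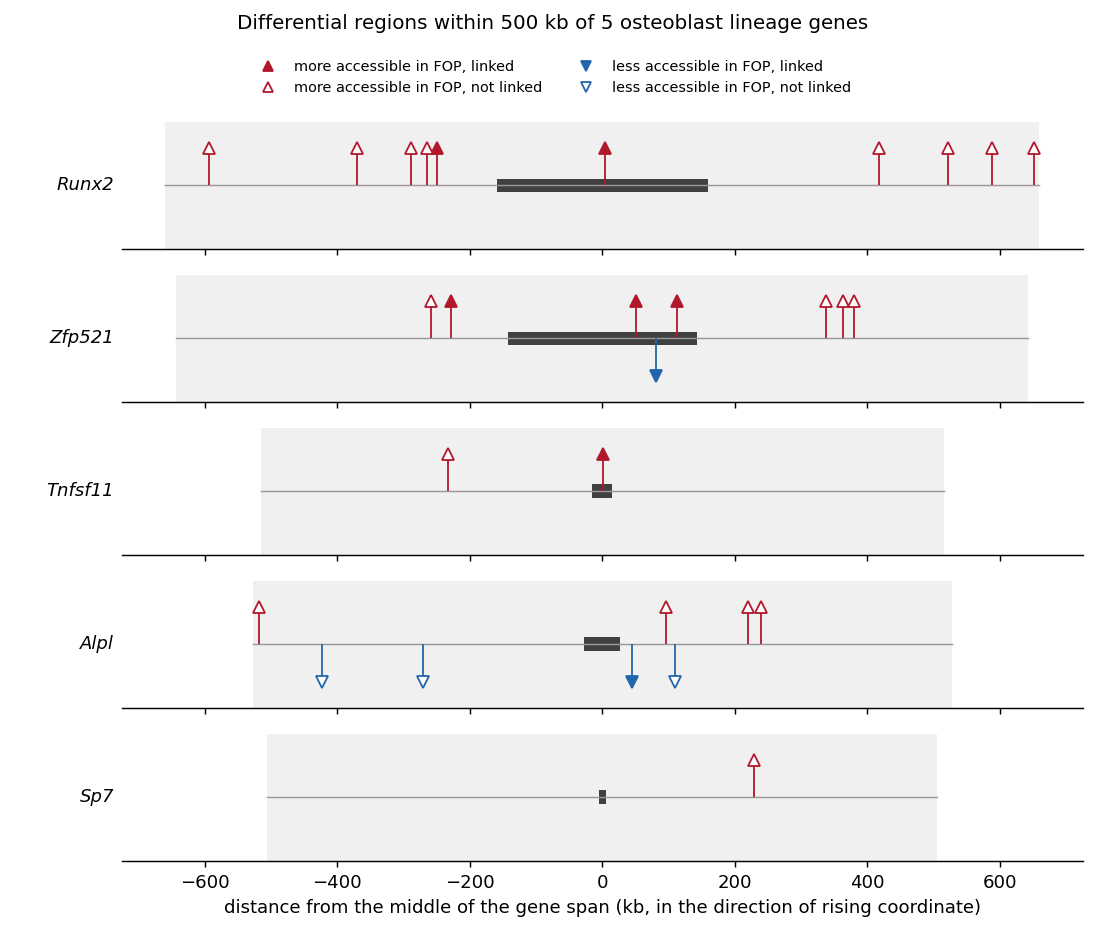
Maps of the 5 gene neighbourhoods, with distance from the middle of each gene span in kb on the horizontal axis; dark bars are gene spans, grey areas reach 500 kb beyond them, upward red triangles are regions more accessible in FOP cells and downward blue triangles regions less accessible, filled where linked to the gene. Runx2 has 10 regions, all more accessible, Zfp521 has 7 more and 1 less accessible, Tnfsf11 has 2 more accessible, Alpl has 4 of each direction, and Sp7 has 1 more accessible.

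Runx2 lay in a neighbourhood rich in gained regions. The gene spans 319 kb of chromosome 17 (44495987 to 44814797, GRCm38). One linked region, chr17:44659749-44660452 (704 bp), lay inside the gene, 155 kb downstream of the start shown above. The other, chr17:44406497-44406993 (497 bp), lay 89.2 kb beyond the 3′ end of the span. A neighbour 16.4 kb farther out, chr17:44389920-44390755 (836 bp), also had Runx2 as its nearest gene but, at 106 kb from the span, fell just outside the limit for a link. With chr17:44366469-44367063, which is nearest to Clic5, these regions form a group of 3 beyond the 3′ end, each with the other 2 within 50 kb.

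On the 5′ side of Runx2 the gained regions lay in and beyond Supt3. Supt3 encodes a subunit of the SAGA transcriptional coactivator complex and is transcribed in the opposite direction, and its span overlaps the first 37.7 kb of that of Runx2. No listed region fell in the shared stretch. The region chr17:45073173-45073597 (425 bp) lay inside Supt3, 259 kb upstream of the Runx2 start. Beyond Supt3 came chr17:45176146-45176872 (727 bp), chr17:45243089-45243572 (484 bp) and chr17:45306281-45306772 (492 bp), at 362, 429 and 492 kb upstream. The last was nearest to Cdc5l, a splicing factor gene. Farther to the 3′ side, 1 region lay near Clic5, a chloride intracellular channel gene (211 kb from the Runx2 span), and 1 near the ectonucleotidase-family gene Enpp5 (434 kb).

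In all 10 more accessible regions lay within 500 kb of Runx2, a density of 7.58 per Mb against 0.897 per Mb over chromosome 17. Only 0.119% of protein-coding genes (26 genes on 10 chromosomes) had at least as many, and Runx2 was the only one of these within 1 Mb of the locus. The overlapping gene Supt3 had 9 within 500 kb of its own span, so the count is not particular to Runx2. No less accessible region lay within 500 kb of Runx2, and the nearest was 2065 kb away. More accessible without any less accessible regions in that window were found at 35.3% of all genes, and at 3 of the 5 here (Runx2, Tnfsf11 and Sp7). The window grows with the gene, and Runx2 is longer than 97.7% of protein-coding genes. Among the 990 genes of at least 200 kb, 8 (0.808%) had 10 or more. Counted within 500 kb of the middle of the gene, an alternative added once the positions were known, Runx2 had 6 more accessible regions, a number reached by 1.49% of genes.

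Zfp521 carried regions of both directions inside its span. The gene covers 286 kb of chromosome 18 (13687013 to 13972749), and its neighbours Hrh4 and Ss18 are 663 and 653 kb away, so that no other protein-coding gene reaches into its window. The more accessible regions inside the gene were chr18:13879819-13880651 (833 bp) and chr18:13942597-13942890 (294 bp). Between them lay the less accessible region chr18:13911420-13911982 (563 bp), 31.5 kb from the first and 31.0 kb from the second. The intragenic regions of opposite direction thus alternated. Linked regions of both directions were present at 0.366% of all protein-coding genes, and at 1 of the 5 here.

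Gene length bears on these counts. More accessible regions lay inside 3 of the 5 genes (Runx2, Zfp521 and Tnfsf11), against 4.28% of all protein-coding genes. Among genes of at least 200 kb the share was 38.7%, and both such genes here, Runx2 and Zfp521, had one. At least 1 region of each direction inside the span was found in 2.22% of these long genes, of which Zfp521 was one.

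The remaining regions around Zfp521 lay between genes, on both sides. On the side of lower coordinates, chr18:13600908-13601477 (570 bp) was linked at 85.8 kb, and chr18:13571565-13572255 (691 bp) lay just outside the limit at 115 kb. Both fell inside the long non-coding RNA gene Gm41670. On the side of higher coordinates 3 more accessible regions of 730 to 873 bp lay within 42.4 kb of each other (14167947 to 14210313), at 196 to 237 kb from the span. Of all 2965 more accessible regions 8.87% had at least 2 others of the list within 50 kb, as these 3 did, a comparison chosen after their positions were seen. For each of the 7 more accessible regions Zfp521 was the nearest protein-coding gene, and 0.0548% of genes (12) were nearest to that many. A nearest-gene count without a distance limit favours genes with distant neighbours, and those of Zfp521 are 663 and 653 kb away. In the 500 kb window, 0.987% of all genes had 7 or more, and 2 of the 5 did (Runx2 and Zfp521). Among the 990 genes of at least 200 kb, 47 (4.75%) had 7 or more.

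**Figure D2:**
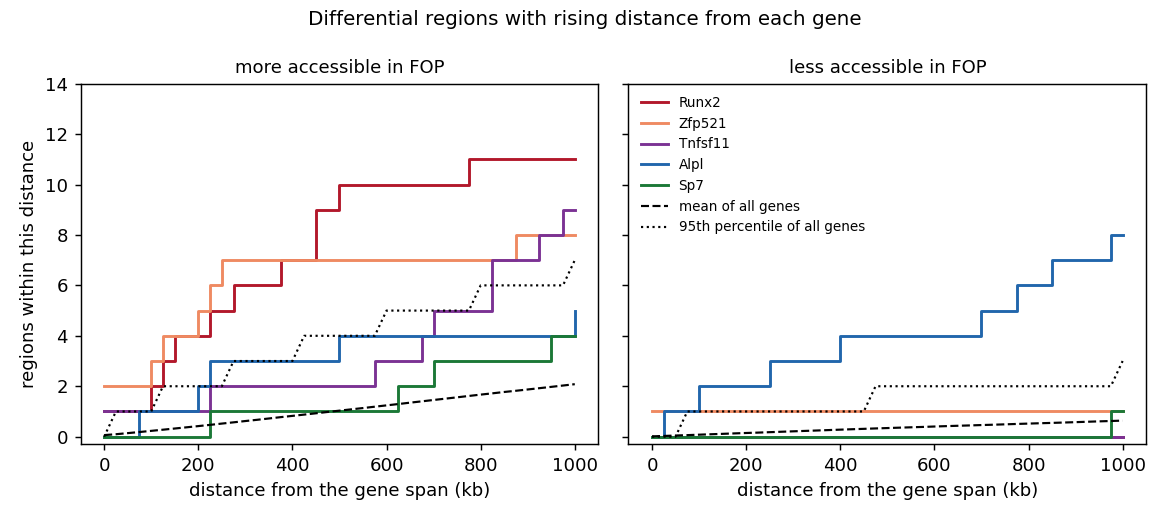
Number of more accessible (left) and less accessible (right) regions within a rising distance of each gene span, 0 to 1000 kb on the horizontal axis; coloured steps are the 5 genes, the dashed line is the mean and the dotted line the 95th percentile of all protein-coding genes. At 250 kb Zfp521 has 7 and Runx2 5 more accessible regions, against a 95th percentile of 2, and Alpl has 3 less accessible regions, against a 95th percentile of 1; in the right panel Runx2, Tnfsf11 and Sp7 lie on top of each other at 0 up to 950 kb.

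Tnfsf11 had a single gained region, inside the gene. The gene spans 30.6 kb of chromosome 14 (78277446 to 78308043). The region chr14:78294274-78294848 (575 bp, near the median width of the list, 572 bp) lay 13.5 kb downstream of its start. One more accessible region, chr14:78060244-78060838, lay 217 kb beyond the 3′ end and nearest to Fam216b. No region lay between Tnfsf11 and 500 kb upstream of it, the side on which several of its known distal enhancers lie. Its count of 2 within 500 kb was reached by 26.1% of all genes, and the nearest less accessible region was 1661 kb away.

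Alpl stood among regions of both directions, and its 1 linked region was less accessible. The gene spans 54.7 kb of chromosome 4 (137741731 to 137796384). The linked region, chr4:137814006-137814528 (523 bp), lay 17.9 kb upstream of the farther upstream start and 47.8 kb upstream of the second start. No region lay inside the gene. The closest annotated gene of any kind to this region was Gm32079, a long non-coding RNA gene 2.46 kb away, so the link to Alpl holds among protein-coding genes only. With links limited to 10 kb Alpl had 0 linked regions.

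Within 500 kb of Alpl there were 4 more and 4 less accessible regions. At least 4 less accessible regions were found at 0.571% of all genes, and at 1 of the 5 here. At least 4 more accessible regions were found at 6.72% of all genes, and here at Runx2, Zfp521 and Alpl. Over chromosome 4 as a whole the lists held 193 more and 64 less accessible regions. The other less accessible regions lay inside Ece1 (83.2 kb from Alpl, an endothelin-converting enzyme gene), inside Hspg2 (243 kb, which encodes the basement membrane proteoglycan perlecan) and inside Cdc42 (396 kb, a gene for a regulator of the actin cytoskeleton). The more accessible ones lay inside Ece1 (68.5 kb), near and inside the translation initiation factor gene Eif4g3 (193 and 212 kb) and near Wnt4, which encodes a WNT ligand (491 kb). The regions of opposite direction in Ece1 were 14.7 kb apart. The window holds 14 other protein-coding genes, and 7 of the 8 regions were inside or nearest to one of those.

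Sp7 had the fewest regions around it of the 5 genes. The gene spans 10.4 kb of chromosome 15 (102356603 to 102367035), among 31 other protein-coding genes within 500 kb. The only region in the window, chr15:102590568-102590953 (386 bp), was more accessible and lay 224 kb away inside Atf7, a gene for a transcription factor of the ATF family. Of all protein-coding genes 49.9% had at least that many more accessible regions. The nearest less accessible region was 968 kb away. In order of more accessible regions within 500 kb the genes ranked Runx2 (10), Zfp521 (7), Alpl (4), Tnfsf11 (2) and Sp7 (1). The order turns with the window. Within 250 kb of the span Zfp521 had 7 and Runx2 5. Counted within 500 kb of the gene middle Zfp521 had 7 and Runx2 6. Within 1000 kb of the span Runx2 had 11, Tnfsf11 9, Zfp521 8, Alpl 5 and Sp7 4. No replicate values exist in the lists by which neighbours in this order could be told apart.

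**Figure D3:**
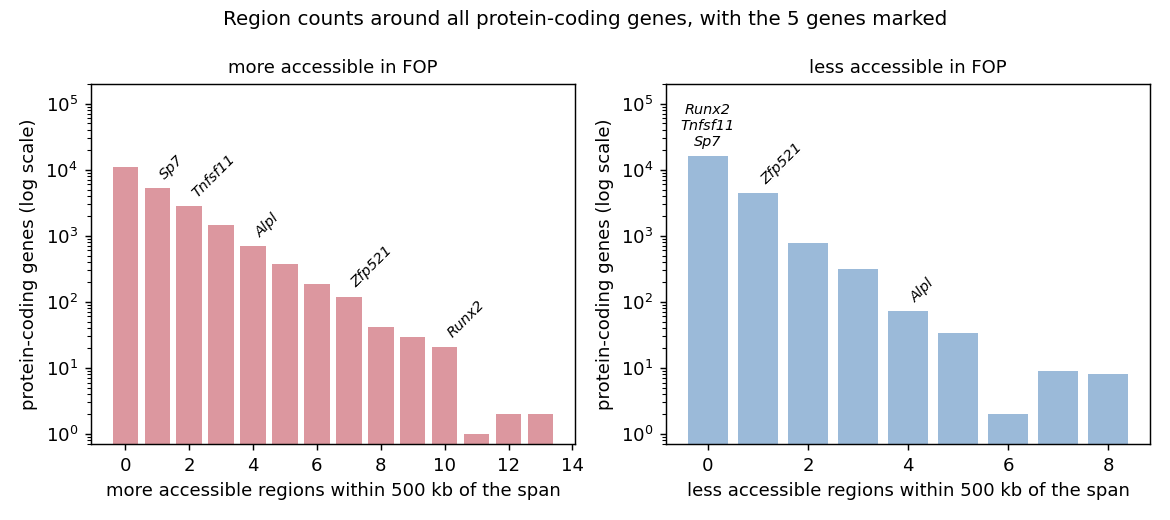
Numbers of protein-coding genes (vertical axis, log scale) by their count of more accessible (left) and less accessible (right) regions within 500 kb of the span, with the 5 genes written above the bar they belong to. Runx2 sits at 10 more accessible regions, reached by 26 of 21887 genes, and Alpl at 4 less accessible regions, reached by 125.

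The regions around the 5 genes were of ordinary width. The 24 more accessible regions within 500 kb measured 294 to 1174 bp with a median of 595 bp, beside a median of 572 bp over the whole list. The 5 less accessible regions measured 323 to 885 bp with a median of 523 bp, beside 611 bp over the whole list. The widest, chr17:44060968-44062141 near Enpp5, was wider than 97.6% of its list.

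Other genes of bone formation were described through 5 lists that hold 55 genes. Of their linked genes 5 (Msx1, Msx2, Twist2, Ebf1 and Ebf2) were already known to have regions when the lists were written, so the counts are no independent evidence. In all 12 of 55 genes (21.8%) had at least 1 more accessible region and 3 (5.45%) had at least 1 less accessible region, beside 7.27% and 1.99% of all protein-coding genes. With links limited to 10 kb, 4 of the 55 genes (7.27%) had a more accessible region, beside 5.03% of all protein-coding genes. Of 19 genes listed as transcription factors of osteoblasts and their progenitors 9 (47.4%) had linked more accessible regions. The list includes Supt3, which encodes a coactivator subunit and overlaps Runx2. Among the 9 were Supt3, Msx2 and Twist2 with 2 each and Runx1, Dlx6, Sp3, Hand2 and Mef2c with 1 each.

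The positions of these regions were mostly distal. Msx2 encodes a homeobox factor induced by BMP, and its regions lay 58.2 and 71.6 kb upstream of its start. The region at Runx1, a paralogue of Runx2, lay 9.18 kb beyond its 3′ end. At Sp3, a relative of Sp7, the region lay 4.06 kb beyond the 3′ end, and at Dlx6, a homeobox gene, 61.4 kb from the span. The regions of Twist2, whose product restrains RUNX2, lay 85.9 kb upstream of the span and 10.4 kb beyond it. Both regions of Supt3 are among those counted around Runx2. Msx1, a relative of Msx2, had a less accessible region 5.81 kb upstream of its start.

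Of 18 genes of the bone matrix and of mineral handling 3 (16.7%) had a linked region, all more accessible. These were Spp1 (osteopontin) at 43.8 kb upstream, Ibsp (bone sialoprotein) at 34.5 kb upstream and Ank, a gene for a pyrophosphate transporter, at 36.3 kb upstream. Spp1 and Ibsp lie close together on chromosome 5, so they are not separate loci, and all 3 links are lost at the 10 kb limit. The collagen genes Col1a1 and Col1a2 and the osteocalcin genes Bglap and Bglap2 had no linked region. None of the 8 genes of the RANKL system, such as the receptor gene Tnfrsf11a and the decoy receptor gene Tnfrsf11b, and none of the 5 genes of osteocytes and late osteoblasts had one. The shares over all protein-coding genes were 7.27% (more accessible) and 1.99% (less accessible), so lists this small cannot show a lack. Within 500 kb Lgr4 of the RANKL system had 6 more accessible regions, where the median of the 8 genes was 0. Exactly 6 were found at 0.850% of all protein-coding genes and 7 or more at 0.987%. Lgr4 was picked after the counts were seen, and genes of the other lists had as many or more: Msx2 and Supt3 9, Msx1 7, Twist2 and Ebf1 6. Of 5 partners and relatives of ZFP521, Ebf1 and Ebf2, early B cell factors, had 1 and 2 linked less accessible regions, all inside the genes. None of the 5 had a linked more accessible one. Counted within 500 kb, Ebf1 had 6 more and 1 less accessible regions and Ebf2 had 2 of each. Zfp423 and Ebf3 had 1 more accessible region each in that window, and Hdac3 had no region.

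**Figure D4:**
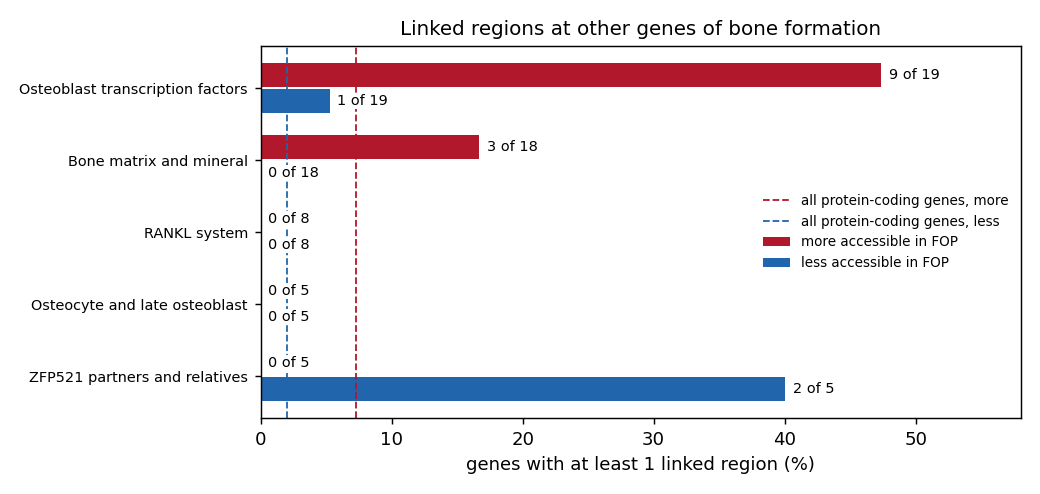
Percentage of genes with at least 1 linked region (horizontal axis) in 5 lists of other bone formation genes; red bars are regions more accessible and blue bars regions less accessible in FOP cells, each with its count, and dashed lines give the share over all protein-coding genes (7.27% and 1.99%). The bar for the transcription factor list, which includes the coactivator subunit gene Supt3, reaches 47.4% (9 of 19). The lists of the RANKL system and of osteocytes are at 0.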

How the data were processed

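Nuclei of mouse embryonic fibroblasts were tagmented with a commercial ATAC-seq kit and sequenced as paired-end reads, per the labels' protocols. Per the submitters' processing notes the authors used the builds mm10 and GRCm38, and Bowtie2, MACS2, DESeq2, featureCounts, Trimmomatic, bedtools and SAMtools, with no roles stated. Settings, duplicate removal, any shift of reads for the transposase, pooling of replicates before peak calling, and the cutoff for listing a region were not given in the sources used here. In each deposited file are base pair positions of the regions of 1 direction, and no values per library. The direction was read from the name of each list.

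Starts were converted to 1-based positions. Gene spans came from RefSeq GRCm38.p6 (21887 protein-coding genes on the autosomes, X and Y), in which all 5 members matched by symbol. Start sites and promoter windows, also from RefSeq, were matched for 3 members, so distances at Zfp521 and Sp7 are from the span. Motifs were sought on both strands. That search was chosen after the data were seen, and the planned motif search in the regions was not run. Counting and linking used Python 3.11.15 with pandas 2.3.3 and scipy 1.17.1, and were checked on planted regions with known answers. Named genes are the 5 members, genes holding or nearest to a region within 500 kb of one, and members of 5 lists with linked regions; other list genes without one were named as examples after their counts were seen. A gene that the rule takes is not reported here. The members and lists were chosen with earlier results of these data known. No test between the groups was possible from positions.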

Additional observations from a re-analysis of the deposited data

How the results depend on the processing

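With links limited to 10 kb the 5 genes had 4 more accessible linked regions instead of 6. Runx2 had 1 instead of 2 and Zfp521 had 2 instead of 3. The 5 genes had 1 less accessible linked region instead of 2, the one at Alpl being lost. At that limit 4 instead of 12 of the 55 other bone formation genes (7.27%) had a more accessible one, beside 5.03% of all protein-coding genes. With the nearest gene taken at any distance the 5 genes had 11 more accessible regions instead of 6, and 7 of them were at Zfp521. With all annotated genes competing, they had 5 more accessible linked regions instead of 6, since 1 at Zfp521 went to Gm41670. They had 1 less accessible linked region instead of 2, since that at Alpl went to Gm32079. Windows of 100 kb held 7 more and 3 less accessible regions, and windows of 1000 kb held 37 and 10, against 24 and 5 at 500 kb; these counts move by construction. Merging regions within 10 kb, counting any overlap with the window links within 120 kb and windows around the gene middle (the last 2 added once the positions were known) moved no summed count over the 5 genes by more than 1.5 times. Linked by the nearest gene end, Runx2 had 1 more accessible region. The planned motif share of the regions and its alternative were not run. No paired analysis was possible because the lists hold no value per library, and for the same reason no replicate could be left out. Depth is unknown, so regions that the authors' test could not detect cannot be told from regions that did not change.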
